A study of Mus musculus with 5 samples.

Results

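The final bone sub-line of NT2.5 cells was compared with the final liver sub-line. NT2.5 is a mouse mammary tumour line from neu transgenic mice, in which the neu oncogene is expressed in mammary tissue from the promoter of mouse mammary tumour virus. Each sub-line in the comparison was represented by 1 array, bone passage 6 and liver passage 3, so 2 of the 5 arrays of the series entered it. The others held the parental cells, labelled wild type and with a preference for metastasis to bone, liver and lung, and earlier passages of the same sub-lines, bone passage 3 and liver passage 1. The labels give a bone preference for both bone passages and a liver preference for both liver passages, and name no treatment. The labels do not state how the sub-lines were derived and what a passage was. Each sub-line is 1 lineage, so the comparison describes these lineages and not bone-seeking or liver-seeking cells in general. With 1 array a side there was no replicate check of any difference, no p-value was computed, and counting genes past 2-fold took the place of a test. The early pair, bone passage 3 against liver passage 1, shared no array with the final pair and was used as a second look at bone against liver. In both pairs the bone array was of a later passage than the liver array, so line and passage number cannot be told apart.

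Breast cancers spread preferentially to certain organs, and bone and liver are among the commonest sites. Tumour cells in bone act on osteoclasts and osteoblasts through secreted factors such as RANKL, its decoy receptor osteoprotegerin and macrophage colony-stimulating factor, and the matrix they release feeds back on the tumour. Type I interferons act through receptor-associated JAK kinases on transcription factors that bind the interferon-stimulated response element in the promoters of antiviral genes. Many tumour cells keep a part of that programme active at a low level without infection.

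Signals are the deposited linear intensities of Affymetrix probe sets, and differences are bone passage 6 minus liver passage 3 on the scale of log2(signal + 16), where 1 is 2-fold. A gene's value is that of its brightest probe set unless several are given. Added to each signal, 16 damps differences between dim values. The median signal of all probe sets was lowest in bone passage 6, at 21.9, and lay between 24.6 and 26.4 in the other 4 arrays. The median difference of genes with a mean signal under 50 was -0.18, and that of genes over 1000 was 0.15, so dim genes leaned lower and bright genes higher in bone passage 6. After quantile normalization these medians were -0.02 and 0.02. Genes named below as 2-fold apart were so under both scalings unless stated.

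Both lines carried markers of epithelium. Krt8, a luminal keratin, read 4829 against 3460.4 in bone passage 6 and liver passage 3, and Epcam, an epithelial adhesion molecule, read 4384 against 3761. Erbb2, the mouse counterpart of neu, differed by 0.18. Of 7 mammary epithelial markers that passed the filter on low signals, none was 2-fold apart. Alb, Apoa1 and Ttr, which define hepatocytes, did not pass that filter, and neither did Ibsp of osteoblasts, Pecam1 and Cdh5 of endothelium or Adipoq of adipocytes. Some other markers did pass it and leaned towards liver passage 3, though not in every list. Of 3 tested hepatocyte markers Tat and Cyp2e1 differed by -0.88 and -0.68 and Apoa2 by 0.07. All 3 tested endothelial markers lay below 0, with Flt1 at -1.13. So did all 5 of fibroblasts and stellate cells, with Pdgfra at -1.12. Of all genes, 55.6% lay below 0. Medians of the endothelial and fibroblast lists were both -0.30, and -0.13 and -0.14 after quantile normalization. Osteoblast markers had 1 of 3 above 0, neutrophil markers 2 of 5, and the only tested T and NK cell marker differed by 0.30. Flt1 and Pdgfra were under 2-fold apart after quantile normalization, and the part of such cells in the results below was not tested. The complement genes C1qa, C1qb and C1qc, which mark tissue macrophages, read 1.2, 13.2 and 0.8 in bone passage 6 and 1.1, 11.8 and 0.8 in liver passage 3. They were higher in liver passage 1, at 56.1, 80.4 and 44.9, which touches the early pair and not the final one. As the RNA came from bulk cells, a smaller share of cells with a transcript and less of it per cell cannot be told apart in any result below.

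Among 12609 genes, 146 (1.16%) were at least 2-fold higher in bone passage 6 and 442 (3.51%) were at least 2-fold lower. The higher genes made up 24.8% of those past 2-fold, 35.4% after quantile normalization (183 genes or 1.45% higher and 334 or 2.65% lower) and 44.3% after centring each array on its median. That centring moved the median difference of all genes from -0.05 to 0.10, so the excess of lower genes depended in size on the scaling, while lower genes were the larger group under each. Under both the deposited and the quantile scaling, 143 genes (1.13%) were higher and 331 (2.63%) lower. For comparison, 4.66% of genes were 2-fold apart either way in the final pair, 2.45% between the bone passages and 2.82% between the liver passages. The 2 passages of each lineage thus differed at fewer genes than the final sub-lines did, although those comparisons share arrays with the final pair. The early bone and liver pair had more genes 2-fold apart than the final pair, 734 against 588.

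Several probe sets of a gene gave the only repeat measurement within an array pair. Of the 5855 genes with at least 2 kept probe sets, 60.8% had all of them on the same side of 0. Among the 215 whose brightest probe set was 2-fold apart, 90.7% did, and 48.8% had at least 2 probe sets past 2-fold. A gene is called supported here where all of its kept probe sets had the same sign and at least 2 of them were past 2-fold under both scalings. That held for 21 genes higher in bone passage 6 (0.359% of the 5855) and 66 lower (1.13%), of which 1 in each direction has only a RIKEN or predicted-gene name. Probe sets of a gene share the RNA and the hybridization, so their agreement covers errors of the probes and not of the cells or the array.

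The largest supported difference was at Marcks, the main membrane-bound substrate of protein kinase C, which links the plasma membrane to actin. It read 1804 in the parental array, 332 and 0.4 in bone passages 3 and 6, and 648 and 841 in liver passages 1 and 3. Signal was thus lower in every sub-line array than in the parental cells and close to 0 in bone passage 6 alone. All 6 probe sets were lower there, by -1.64 to -5.71, and the early pair differed by -0.93. Nrp1, a co-receptor for class 3 semaphorins and vascular endothelial growth factor, read 220.4 in the parental array, 125 and 15.1 in bone passages 3 and 6, and 222 and 349 in liver passages 1 and 3. Its 3 probe sets differed by -1.57 to -3.55. Bone passage 6 was again the lowest array, and both liver passages were at or above the parental level. Mme, the cell-surface peptidase neprilysin, read 849 in the parental array, 524.5 and 106 in bone passages 3 and 6, and 1101 and 1461 in liver passages 1 and 3, a difference of -3.59. Add3, an adducin of the cortical spectrin and actin network, read 19.4 against 216 and differed by -2.71, with 4 probe sets of the same sign.

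Some other supported genes were high in the liver line rather than low in the bone line alone. Ankrd1, an ankyrin-repeat protein induced through YAP, read 80.2 in the parental array, 91.9 and 228 in bone passages 3 and 6, and 602 and 3496 in liver passages 1 and 3. Both sub-lines' final arrays were above the parental cells, and liver passage 3 stood 14.4-fold above bone passage 6 on the signal + 16 scale. Dclk1, a microtubule-associated kinase, read 74.6 in the parental array, 77.5 and 19.5 in bone passages 3 and 6, and 206 and 263 in liver passages 1 and 3, with 6 probe sets that differed by -0.55 to -2.97. Ogn, a small leucine-rich proteoglycan first purified from bone, read 108 in liver passage 3 and at most 7.8 in the other 4 arrays. Lpl, the lipase that frees fatty acids from lipoproteins, read 56.0 in the parental array, 5.3 and 13 in bone passages 3 and 6, and 82.8 and 253.5 in liver passages 1 and 3. Of 7 adipocyte markers 5 had a probe set of their own in the annotation, and Lpl alone passed the filter. Among the remaining supported genes with the largest differences, Ppp2r2c, a regulatory subunit of protein phosphatase 2A, differed by -3.41. It read 231 in parental cells, 31 and 2.4 in bone passages 3 and 6, and 181 and 180 in liver passages 1 and 3. Ppp2r2c was thus low in the bone line alone. Armcx3, a mitochondrial armadillo-repeat protein, differed by -3.14, and Rnf128, a membrane-bound ubiquitin ligase, by -2.45.

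Igfbp3, the main carrier of insulin-like growth factors in serum, was the 1 supported gene that was 2-fold apart the other way in the early pair. It read 490.3 in the parental array, 459 and 7.6 in bone passages 3 and 6, and 111.5 and 218 in liver passages 1 and 3. The bone line held the parental level at passage 3 and read near 0 at passage 6, while both liver passages lay below the parental array. The final pair differed by -3.31 and the early pair by 1.90, and both of its probe sets gave the same signs. With both lines at passage 3, bone minus liver was 1.02. The other members of its list were spread around 0, with a median of -0.15 over 9 tested genes, and Igf1 was the only other one past 2-fold, at -1.28. That probe set of Igf1 read 1.3 against 26, and the other kept ones differed by -0.44 and -0.16.

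**Figure D1:**
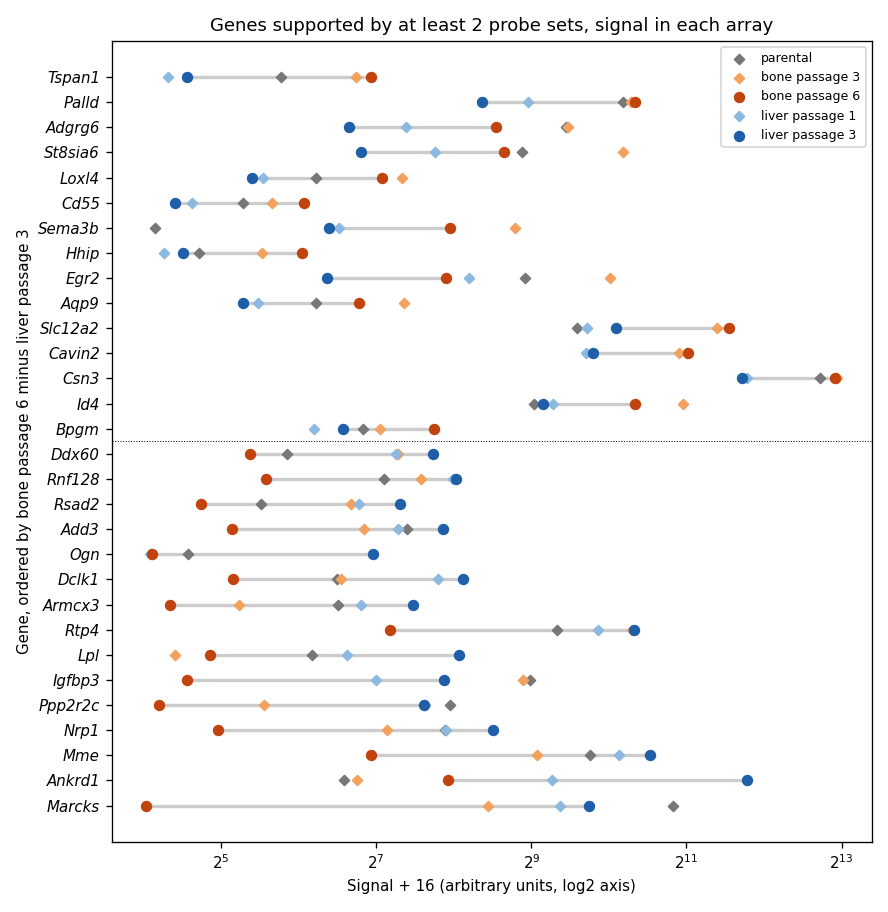
Signal + 16 on a log2 axis for the 15 higher and 15 lower supported genes with the largest differences, with 1 point per array and a grey line joining bone passage 6 to liver passage 3. Marcks reads 0.4 in bone passage 6, the lowest point plotted, and Sema3b is higher in all 4 sub-line arrays than in the parental cells.

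Supported genes that were higher in bone passage 6 spanned a smaller range. Tspan1, a tetraspanin of epithelial membranes, read 38.6 in the parental array, 91.3 and 106 in bone passages 3 and 6, and 4.0 and 7.6 in liver passages 1 and 3. Both bone passages were above the parental cells and both liver passages below them, and the difference was 2.37. Palld, the actin-bundling protein palladin, read 1144.5 in the parental array, 1233.5 and 1275 in bone passages 3 and 6, and 482 and 315 in liver passages 1 and 3. There the bone passages kept close to the parental level and the liver passages were lower, with a final difference of 1.96 and its dimmest probe set at 0.10.

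Further patterns appeared among these genes. Slc12a2, the sodium, potassium and chloride cotransporter of secretory epithelia, read 756.5 in the parental array, 2671 and 2989.9 in bone passages 3 and 6, and 828 and 1075 in liver passages 1 and 3, so both bone passages stood above every other array. Sema3b, a secreted semaphorin, read 1.8 in the parental array, 427 and 231.5 in bone passages 3 and 6, and 75.7 and 68.3 in liver passages 1 and 3. All sub-line arrays were above the parental one, and the final pair differed by 1.55. Csn3, the milk protein kappa-casein, was among the brightest transcripts and read 6731 in the parental array, 7863 and 7739 in bone passages 3 and 6, and 3499.8 and 3350.2 in liver passages 1 and 3, 2.3-fold apart in the final pair. Id4, an inhibitor of helix-loop-helix factors found in basal mammary cells, read 1282.5 against 555 and differed by 1.19. Adgrg6, an adhesion receptor, St8sia6, a sialyltransferase, and Loxl4, a lysyl oxidase, differed by 1.90, 1.85 and 1.67. Cd55, which protects cells from complement, Hhip, which sequesters hedgehog ligands, and the immediate early factor Egr2 differed by 1.66, 1.54 and 1.53. The water and glycerol channel Aqp9 differed by 1.5, the caveolar protein Cavin2 by 1.22 and the red-cell glycolytic enzyme Bpgm by 1.17.

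The interferon response was the gene group with the most members apart. Of 40 listed genes, 34 were tested, and 23 of them were at least 2-fold lower in bone passage 6, against 3.51% of all genes. All 23 were so under both scalings, against 2.63%. None was 2-fold higher, and all 34 lay below 0, where 55.6% of all genes did. The median of the 34 differences was -1.52, and -1.40 after quantile normalization. The list was drawn up with earlier results of these data known, so its direction is a description of these arrays. Oas2 and Mx2 did not pass the filter, and the other listed genes, Isg15, Ifi44 and Tgtp1 among them, were not analysed here.

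Promoter stretches of members are shown for the element that interferon-activated complexes bind. The element was searched for as GAAA, 2 bases of any kind and GAAA, on both strands of the 250 bases before each start, in RefSeq sequences of assembly GRCm38.p6. Capitals mark 1 match per gene, which reads TTTC, 2 bases and TTTC where it lies on the other strand. The 5 genes that were lower in bone passage 6 come first, and Stat2, which was less than 2-fold apart, comes last.
Ifit1: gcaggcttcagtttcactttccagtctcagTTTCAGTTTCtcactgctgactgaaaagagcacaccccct
Ifit3: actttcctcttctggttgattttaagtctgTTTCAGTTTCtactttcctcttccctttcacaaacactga
Rsad2: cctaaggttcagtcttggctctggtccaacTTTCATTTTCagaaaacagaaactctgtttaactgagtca
Bst2: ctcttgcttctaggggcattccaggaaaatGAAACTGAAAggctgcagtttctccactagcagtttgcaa
Gbp2: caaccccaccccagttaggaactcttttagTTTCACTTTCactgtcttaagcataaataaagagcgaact
Stat2: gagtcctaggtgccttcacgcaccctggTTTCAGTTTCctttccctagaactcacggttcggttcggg
The stretches lie at chr19:34640774-34640843 on the plus strand, chr19:34583377-34583446 on the plus strand, chr12:26456533-26456602 on the minus strand, chr8:71537557-71537626 on the minus strand, chr3:142620574-142620643 on the plus strand and chr10:128270248-128270315 on the plus strand, each upstream of the named gene's start. A match was present in 11 of the 18 lower interferon genes with a promoter in the table (61.1%), and in 1 of the 9 tested interferon genes that were not 2-fold apart. Of all tested genes with a promoter, 3.11% held one. Among all 251 genes lower under both scalings that had a promoter, 19 (7.57%) held a match, and among the 114 higher ones 3 (2.63%) did. The 19 include the 11 interferon genes already counted, so they are not a separate result. Such a match is a run of letters and not a measured binding site.

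Antiviral effectors held the largest differences, with 14 of 20 tested members past 2-fold and a median of -1.87. Ifit1, which binds viral RNA lacking host cap methylation, read 57.1 in the parental array, 207 and 17.6 in bone passages 3 and 6, and 162 and 335 in liver passages 1 and 3. Rtp4, an interferon-induced antiviral protein, read 625 in the parental array, 1240.2 and 128.5 in bone passages 3 and 6, and 912 and 1266.5 in liver passages 1 and 3, and its 2 probe sets differed by -3.15 and -1.69. Usp18, which removes ISG15 from proteins and damps the interferon receptor, read 125 in the parental array, 387 and 32.3 in bone passages 3 and 6, and 289.9 and 405 in liver passages 1 and 3. In these genes bone passage 3 stood above the parental cells and bone passage 6 below them, while liver passage 3 was the highest array or nearly so. Oasl2, of the oligoadenylate synthetase family, differed by -3.17, Ifit3 by -2.64, the tetherin gene Bst2 by -2.57, and Oas3 by -2.55. Rsad2, which makes the antiviral nucleotide ddhCTP, was supported by 3 probe sets that differed by -1.60 to -2.57. Effectors that were not 2-fold apart included the bright Ifitm3, at 2932 against 3516, and the RNA-activated kinase Eif2ak2, at 126 against 148.

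All 5 tested GTPases of the guanylate-binding and immunity-related families were past 2-fold, with a median of -1.55. Gbp2 read 77.6 in the parental array, 80.8 and 41.4 in bone passages 3 and 6, and 140.0 and 258 in liver passages 1 and 3, and Gbp3 differed by -2.95 and Iigp1 by -1.55. Among 5 sensors of nucleic acids, Zbp1 and Ifih1 were past 2-fold, at -2.25 and -1.54, and Ddx58, Dhx58 and Tlr3 lay between -0.50 and -0.37. The transcription factors split in the same way. Irf7, the factor that amplifies interferon production, read 66.5 in the parental array, 224 and 37.5 in bone passages 3 and 6, and 108 and 197 in liver passages 1 and 3, and Irf9 read 103 against 319 in the final pair. Irf1 and Stat2 differed by -0.30 and -0.20. Ddx60, an interferon-induced helicase outside the list, was supported at -2.36. Ifi27 and Uba7, chosen after their values were seen, were supported too, at -1.64 and -1.47.

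The early pair did not show this group apart. Its median over the same 34 genes was 0.12, and none of them was 2-fold apart either way, where 3.22% of all genes were 2-fold higher and 2.6% lower. Between the bone passages the median was -1.01, with 17 members 2-fold lower at passage 6 against 2.09% of all genes. Between the liver passages it was 0.53, with 3 members 2-fold higher at passage 3 against 1.69% of all genes. With both lines at passage 3, bone minus liver had a median of -0.31. There 5 of the 34 members were 2-fold lower, against 300 of all 12609 genes. Set against the parental cells, bone passage 6 had a median of -0.43 and liver passage 3 one of 0.99, and these comparisons share arrays with the final pair. Summed over the tested members, signal was 8071 in bone passage 6, 16919.9 in liver passage 3 and 8984.5 in the parental array. Of 12 tested markers of macrophages, which express interferon genes in tissue too, 7 were lower in bone passage 6, where 55.6% of all genes were. The median of these markers was -0.22, and -0.08 after quantile normalization. Their summed signal was 1231 in bone passage 6 and 813 in liver passage 3, but Cd14 alone read 928 and 242. Without Cd14, left out after the values were seen, the sums were 302 and 571, in the other direction. Cd68 and Fcgr3 differed by -1.05 and -1.06, and the C1q genes were low in both arrays, as given above. The part of macrophages in the interferon result was not tested.

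**Figure D2:**
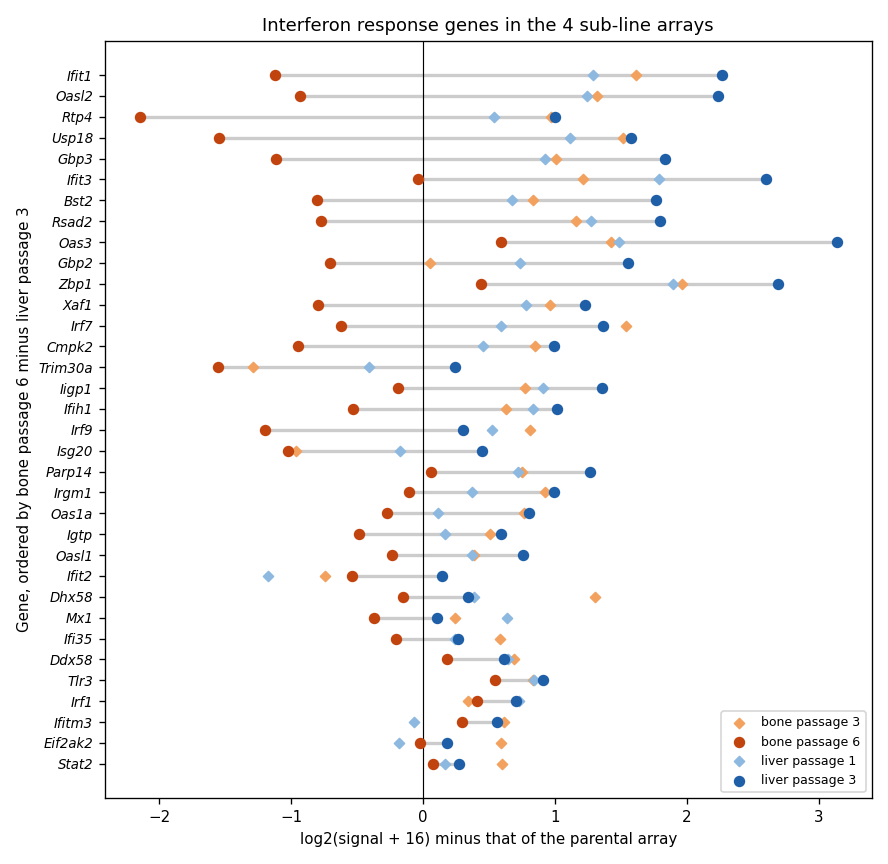
Difference from the parental array, as log2(signal + 16), for each of the 34 tested interferon response genes in the 4 sub-line arrays, with a grey line joining bone passage 6 to liver passage 3. Bone passage 6 lies to the left of liver passage 3 for all 34 genes, and for Ifit1 bone passage 3 lies between liver passages 1 and 3.

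Genes of antigen presentation, which interferon also induces, had smaller differences. Of 13 tested genes of MHC class I presentation, only Nlrc5, the transactivator of that class, was 2-fold apart, at -1.47 from 8.5 against 51.7. The median was -0.61. The heavy chains H2-K1 and H2-D1 differed by -0.11 and 0.05, the light chain B2m by -0.72, and the immunoproteasome subunits Psmb8 and Psmb9 by -0.51 and -0.92. Psmb8 read 271 in the parental array, 1406 and 1377 in bone passages 3 and 6, and 1372 and 1973 in liver passages 1 and 3, so it stood above the parental cells in every sub-line array, bone passage 6 included. Among 23 tested chemokines and receptors 3 were 2-fold lower, against 3.51% of all genes, and none higher. Under both scalings 2 were, against 2.63%. Ccl5 and Cxcl10, ligands that draw T cells, read 1.5 against 59.3 and 1.3 against 57.6, and Cxcl11, named to complete the count, differed by -1.02 as deposited and by under 2-fold after quantile normalization.

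Some of the largest differences rested on 1 probe set. Of the 146 higher genes 98 had a single kept probe set, and of the 442 lower ones 275 had. Slc15a3, a lysosomal peptide and histidine transporter, read 2.2 in the parental array, 297 and 285 in bone passages 3 and 6, and 12.1 and 4.7 in liver passages 1 and 3. It was at most 12.1 in the parental cells and the liver line, and high at both bone passages. Kank4, of a family of talin-binding proteins, read 59.3 in the parental array, 1097 and 502 in bone passages 3 and 6, and 24.6 and 34.1 in liver passages 1 and 3. Abcg2, an efflux pump that exports drugs and porphyrins, read 939.7 in the parental array, 2014 and 2340.2 in bone passages 3 and 6, and 325 and 278 in liver passages 1 and 3, so bone passages were above and liver passages below the parental level. Dock11, an activator of Cdc42, and Dynap differed by 2.94 and 2.93.

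In the other direction, Rhox5, a homeobox gene of the X chromosome that is silent in most somatic tissues, read 2809.8 in the parental array, 63.0 and 126 in bone passages 3 and 6, and 1662 and 3731 in liver passages 1 and 3. Parental cells and liver line carried it and the bone line held little, at both passages. Prom1, the stem-cell marker CD133, read 59.6 in the parental array, 32.4 and 4.9 in bone passages 3 and 6, and 453 and 485 in liver passages 1 and 3, with the liver line above the parental array and the bone line below it. Pygl, the liver form of glycogen phosphorylase, read 14.2 against 474, and Clca2, a membrane protein named for chloride conductance, 15.3 against 382. Gzme, a granzyme, read 474 in the parental array, 87.1 and 34.7 in bone passages 3 and 6, and 364 and 1126 in liver passages 1 and 3. Of 10 markers of T and NK cells 7 had a probe set of their own in the annotation, and of these only Cd8a passed the filter. The signal of Cd8a lay between 52.1 and 69.2 in the 5 arrays.

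How far the final difference was already there at the early passages was asked with the pair that shares no array with it. Of the 146 higher genes 86 (58.9%) were also 2-fold higher in the early pair, which is 21.2% of the 406 genes higher there (3.22% of all). Of the 442 lower genes 98 (22.2%) were also 2-fold lower early, or 29.9% of the 328 lower there (2.6% of all). By sign alone, 92.5% of the higher and 75.1% of the lower genes had the same sign early, where 51.2% and 48.8% of all genes lay above and below 0. Of the supported genes, 17 of 21 higher and 24 of 66 lower ones were past 2-fold early. The early arrays come from the same lineages, so the repeat shows that a difference was present at 2 stages and not that other lineages would have it.

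Genes that differed in the final pair but by under 0.25 or the other way in the early pair were a separate set. The 5 largest on the lower side were Igfbp3, Ifit1, Oasl2, Rtp4 and Usp18, of which the last 4 are interferon response genes. On the higher side the 5 largest were Prl6a1, Lao1, S100a14, Leng9 and Mal2. Prl6a1, of the placental prolactin family, read 47.9 against 3.7, and Lao1, an amino acid oxidase found in milk, 35.2 against 4.5. S100a14, an epithelial S100 protein, read 533.5 against 207, a difference of 1.30 against -0.14 early. Leng9 and Mal2 differed by 1.23 and 1.21, and a second probe set of Leng9 by 0.24.

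**Figure D3:**
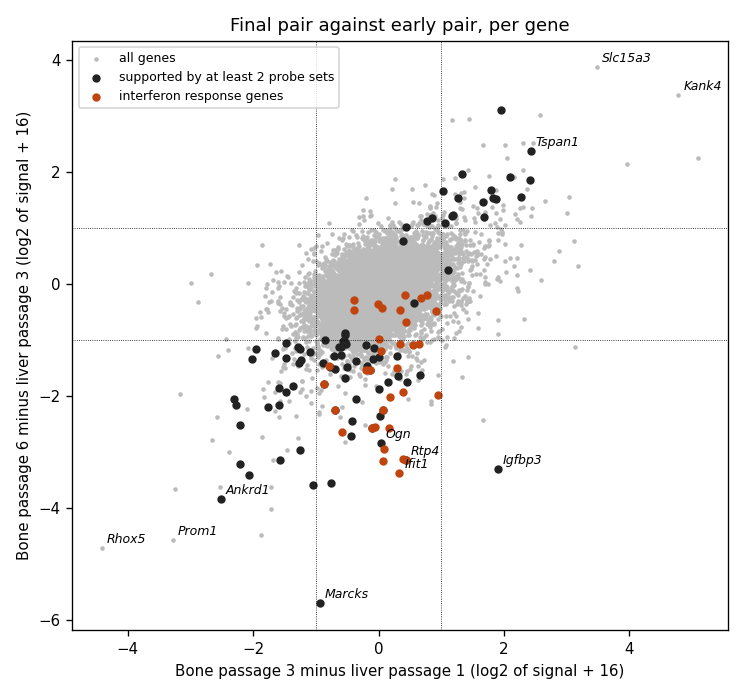
Bone minus liver difference of the final pair (vertical axis) against that of the early pair (horizontal axis) for 12609 genes, as log2(signal + 16), with dotted lines at 2-fold. The interferon response genes lie below 0 on the vertical axis and around 0 on the horizontal one, and Igfbp3 lies at 1.90 early and -3.31 final.

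Genes through which tumour cells act on bone were examined as a list of 10, of which 6 were tested and 2 were 2-fold lower in bone passage 6 under both scalings, against 2.63% of all genes. Csf1, the growth factor that osteoclast precursors need, read 709 in the parental array, 492 and 491 in bone passages 3 and 6, and 1399.6 and 1044 in liver passages 1 and 3. The bone line was below and the liver line above the parental cells at both passages, and all 4 probe sets were lower, by -0.72 to -1.36. Tnfrsf11b, osteoprotegerin, read 4.2 in the parental array, 47.9 and 25.6 in bone passages 3 and 6, and 61.8 and 95.2 in liver passages 1 and 3, so it was above the parental level in every sub-line array and highest in liver passage 3. Its second probe set differed by -0.55. The RANKL gene Tnfsf11 did not pass the filter, nor did Il6 and Il11, and Pthlh, the gene of parathyroid hormone-related protein, had no probe set of its own in the annotation. Tnfrsf11a, which encodes the receptor RANK, differed by 0.44. Jag1, a Notch ligand linked to bone metastasis, differed by -0.80 in the final and -1.96 in the early pair.

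Of 7 tested genes of bone matrix and mineralization, 1 was 2-fold higher and 1 lower, against 1.16% and 3.51% of all genes. Alpl, the phosphatase that allows mineral to form, read 470.3 in the parental array, 445 and 395 in bone passages 3 and 6, and 143 and 108 in liver passages 1 and 3. Bone passages were close to the parental level and liver passages lower, while Ibsp did not pass the filter and the other osteoblast markers tested, Sp7 and Col1a1, differed by -0.51 and -0.02. Postn, a matrix protein that binds integrins, read 56.7 against 224 and differed by -1.72. Cxcl12, a chemokine of bone marrow stroma, read 9.9 against 13.4, and its receptor gene Cxcr4 read 9.1 against 6.8.

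Genes of glutathione metabolism and detoxification under the factor NRF2 held 4 of 24 tested members 2-fold higher, against 1.16% of all genes, and 1 lower. Nqo1, a quinone reductase, read 8.3 in the parental array, 174 and 157 in bone passages 3 and 6, and 18.4 and 14.3 in liver passages 1 and 3. Blvrb, biliverdin reductase B, read 62.7 in the parental array, 135 and 107 in bone passages 3 and 6, and 20.3 and 9.9 in liver passages 1 and 3. Gpx2, an epithelial glutathione peroxidase, and Aldh3a1, an aldehyde dehydrogenase, differed by 1.34 and 1.07. Their order against the parental array was not the same, as Nqo1 was above it in the bone line and Gpx2 below it in both lines, at 436 against 162.5. The list's median was 0.19, and it also held genes near 0, such as Gclc at -0.12, Gsr at -0.02 and Hmox1 at 0.26. Cbr3, a carbonyl reductase chosen to complete the count, was lower at -1.12 as deposited and under 2-fold after quantile normalization. The core of the antioxidant response element, TGACNNNGC, was searched on both strands and found before the start of 2 of the 18 listed genes with a promoter in the table (11.1%), against 13.9% of all tested genes.

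Metabolic and stress genes differed singly rather than as groups. Bnip3, a hypoxia-induced mitophagy receptor, read 252 in the parental array, 108 and 84.1 in bone passages 3 and 6, and 223.5 and 473 in liver passages 1 and 3, and Pdk1, which blocks pyruvate entry into the citric acid cycle, was lower in 3 probe sets, by -0.67 to -1.23. Egln3, an oxygen-sensing hydroxylase that hypoxia also induces, was higher at 1.37, with a second probe set at 0.38. The 24 tested hypoxia and glycolysis genes had a median of 0.11. Fkbp11, a chaperone of the secretory pathway, was the 1 of 20 genes of amino acid stress and the unfolded protein response past 2-fold, and its 2 probe sets disagreed, at 2.51 and -0.82. The median of that list was 0.27 in the final and -0.38 in the early pair. Trib3, a target of ATF4, read 1109.5 in the parental array, 877 and 385 in bone passages 3 and 6, and 1923 and 403 in liver passages 1 and 3, so liver passage 1 was the highest array and the final pair differed by -0.06. None of 16 oxidative phosphorylation genes, 15 of sterol and fatty acid synthesis, 10 ribosomal protein genes or 9 p53 targets was 2-fold apart.

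Cell-cycle genes of replication and mitosis, 18 tested, had a median of 0.13 with none past 2-fold. Ccnd2, a cyclin of the early cell cycle, read 158 in the parental array, 786 and 688 in bone passages 3 and 6, and 83.7 and 276 in liver passages 1 and 3. The bone line was above the liver line at both stages, and its 7 probe sets differed by 0.27 to 1.27 in the final pair. Cdkn2c, an inhibitor of the kinases that cyclin D activates, read 243 against 546 and was lower. Among genes of differentiation, Kit, a receptor of luminal progenitors, differed by -1.69 with 2 agreeing probe sets. Vim, the intermediate filament of mesenchymal cells, read 5740.2 in the parental array, 3525 and 1818 in bone passages 3 and 6, and 4553 and 4769 in liver passages 1 and 3. It was lowest in bone passage 6, and 3 probe sets differed by -1.23 to -1.63. The other tested genes of epithelial-mesenchymal transition were less than 2-fold apart, with Cdh1 at -0.15.

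Matrix, protease and surface genes showed members on either side. Tnc, the matrix protein tenascin C, read 249.5 against 921 and was lower, and Lama3, a laminin chain of epithelial basement membranes, read 156 against 62.8 and was higher. Timp3, an inhibitor of metalloproteinases, differed by -1.26, with other probe sets from -0.55 to -1.06, and Plaur, the urokinase receptor, by 1.09. The kallikreins Klk10 and Klk6 differed by 2.03 and 1.31. The serine protease Prss23 differed by -1.29, with other probe sets at -1.09 and -0.53. Of 11 heparan sulfate genes, Hpse2, a relative of heparanase, was higher at 1.90. The sulfatase Sulf2 was lower at -1.30, with other probe sets at -1.19 and -0.25. The glypican Gpc6 was lower at -1.14, with other probe sets from -0.95 to -2.11. Of the claudins, which seal tight junctions, Cldn2 read 2.4 in the parental array, 76.2 and 19.1 in bone passages 3 and 6, and 103 and 130.0 in liver passages 1 and 3. Cldn8 read 17.9 in the parental array, 59.8 and 22.1 in bone passages 3 and 6, and 0.5 and 1.1 in liver passages 1 and 3. Cldn2 was thus low in the parental cells and highest in the liver line, and Cldn8 was near 0 in the liver line.

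Of the zinc transporters, Slc39a8 read 704 in the parental array, 151.5 and 197 in bone passages 3 and 6, and 792 and 933 in liver passages 1 and 3. It was low in both bone passages, with probe sets at -2.31 and -2.16. Slc39a4, the intestinal zinc importer, was higher at 1.13. Abcc3, an exporter of organic anions, differed by -1.65, and Ntn4, a netrin of basement membranes, by -2.01. Hey1, a target of Notch, differed by 1.04. Birc3, an inhibitor of apoptosis that NF-kB induces, read 5.0 against 54.6. Cd14, a receptor for lipopolysaccharide found on macrophages and also on mammary epithelium, read 336 in the parental array, 450.2 and 928 in bone passages 3 and 6, and 212 and 242 in liver passages 1 and 3, so bone passage 6 was highest. It was the 1 macrophage marker of 12 tested that was 2-fold higher. Fcgr3 was lower at -1.06 and Cd68, named to complete the count, at -1.05 as deposited only. The list's median was -0.22, and -0.08 after quantile normalization. The part of other cells in these values was not tested.

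**Figure D4:**
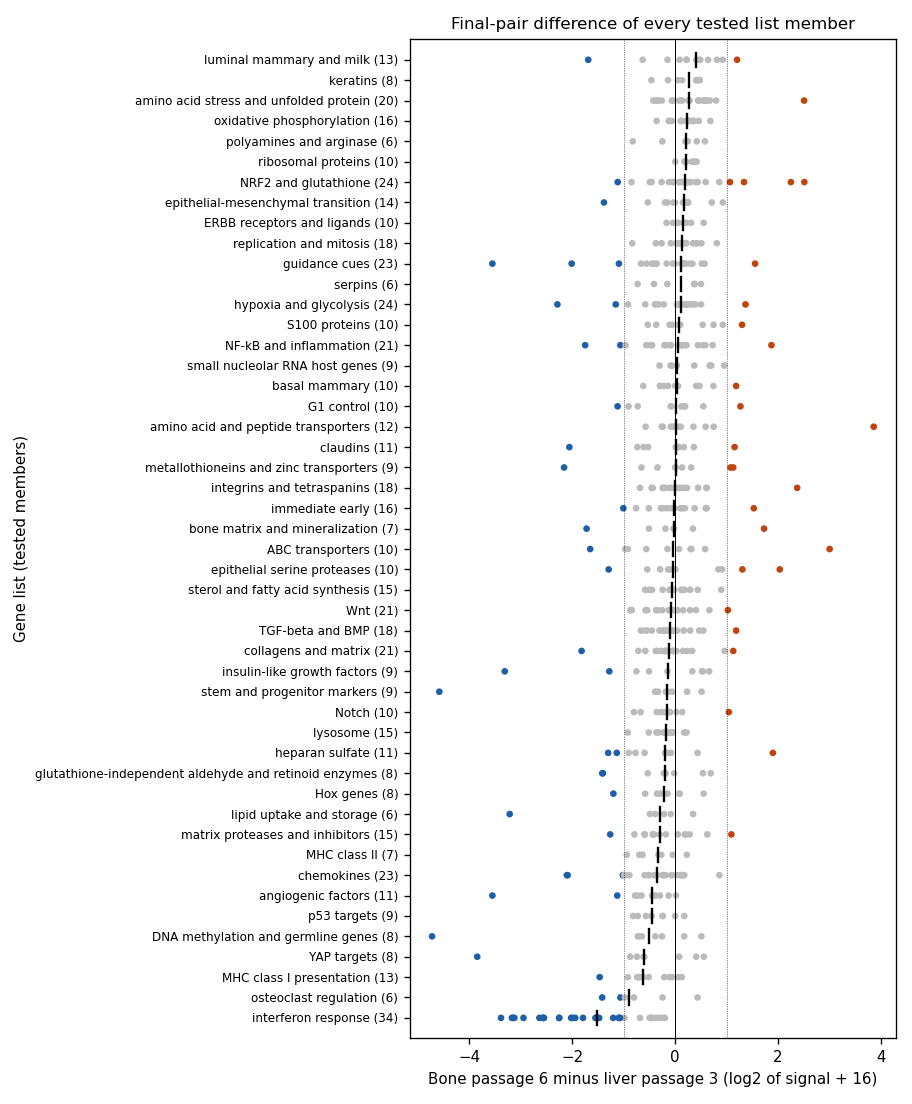
Final-pair difference, as log2(signal + 16), of every tested member of each gene list with at least 6 of them, cell type markers left out, with members at least 2-fold higher in red, at least 2-fold lower in blue, the rest in grey and a black tick at the list's median. The interferon response has the lowest median, -1.52, and all 34 of its members lie below 0.

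The differences were not spread evenly over the chromosomes, a pattern that was looked for after the values were seen. Genes were assigned to chromosomes through the RefSeq table. The 354 tested genes of the X chromosome had a median difference of -0.57, and 326 of them (92.1%) lay below 0, against 55.6% of all genes. Chromosome 9 had a median of -0.33, chromosome 3 of -0.26, chromosome 5 of -0.23 and chromosome 2 of -0.21. The other 15 chromosomes had medians between -0.01 and 0.16, the highest on chromosome 6. Medians of the early pair were -0.43 for X, -0.26 for 9 and 3, -0.18 for 5 and -0.05 for 2. After quantile normalization of the final pair, X stood at -0.50 and the 15 others between 0.03 and 0.21.

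Within a chromosome the shift ran along most of its length. Cut into consecutive groups of 20 neighbouring tested genes, all 17 groups of X had a median below 0, from -0.82 to -0.31. So did all 34 groups of chromosome 9, all 30 of chromosome 3, all 50 of chromosome 2 and 38 of the 40 of chromosome 5. Against the parental cells, the X median was -0.21 for bone passage 6 and 0.34 for liver passage 3. Of the 330 lower genes with a chromosome, 139 (42.1%) lay on these 5, which hold 27.6% of the tested genes. These 5 were picked for low medians of the same difference, so that excess follows in part from the choice and is not a separate result. Subtracting each chromosome's median left 156 genes higher and 380 lower, and the count of lower interferon response genes was then 22. Chromosome 6 went the other way over part of its length. Medians of its groups ran from -0.14 to 0.46, with 5 of 31 below 0. From group 21 on, the highest was 0.14.

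On the X chromosome 27 genes (7.63%) were 2-fold lower under both scalings and 1, Dock11, was higher. Besides Rhox5, Armcx3, Rnf128 and Cldn2, named above, the lower genes with agreeing probe sets included Dmd, which encodes dystrophin, at -2.17, and Pak3, a kinase downstream of Rac and Cdc42, at -2.05. Vma21, an assembly factor of the vacuolar proton pump, differed by -1.33, and Atp6ap2 and Atp6ap1, accessory subunits of that pump, by -1.05 and -1.13. Dmd, Pak3, Vma21 and the pump subunits were chosen after their values were seen. Of the 23 lower interferon response genes, 7 lay on the 5 chromosomes, among them Oasl2 on 5 and Gbp2 on 3.

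**Figure D5:**
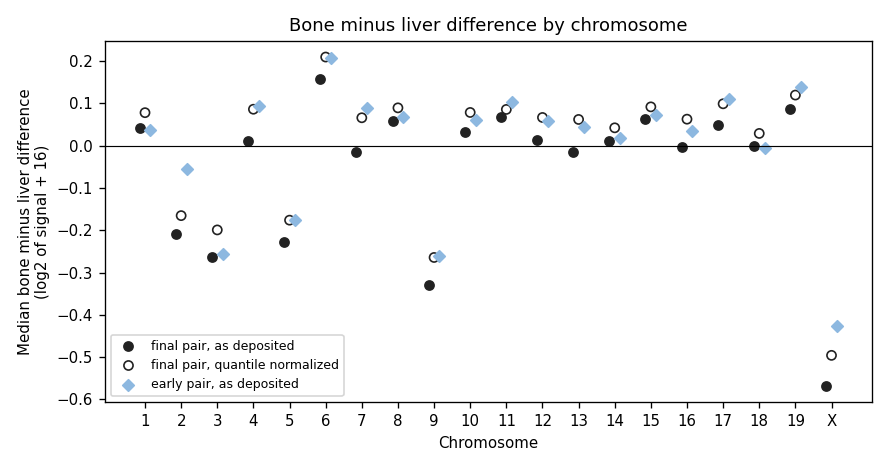
Median bone minus liver difference of the tested genes on each chromosome, as log2(signal + 16), for the final pair as deposited (filled circles), the final pair after quantile normalization (open circles) and the early pair (diamonds). X, 9, 3, 5 and 2 lie below 0 in the final pair under both scalings, with X at -0.57 as deposited.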

How the data were processed

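RNA of 5 samples was hybridized to Affymetrix mouse expression arrays of 1 colour, 1 array per sample. The authors deposited 1 linear intensity (signal) for each of 45101 probe sets. RMA is named, without a version, per the submitters' processing notes. RMA gives log2 values and these are linear, and no file header states further steps, so log2(intensity + 16) was taken here with no other scaling. The trimmed mean of each array was near 150.0, and the number of arrays limits the precision.

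Platform annotation gave 1 gene to 34958 probe sets and several to 932, and did not list 9211. Probe sets with 1 gene were kept where the highest of the 5 values reached the median of all values, 25.1, which left 22624. Each gene was read from its kept probe set of highest mean (12609 of 18193 genes). RefSeq (GRCm38.p6) gave chromosomes and promoters. Folds are on the signal + 16 scale and understate changes of dim genes.

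The members and the 62 gene lists were chosen with earlier results of these data known. Named were, in each direction, the 15 supported genes and the 5 genes of 1 probe set with the largest difference, the 5 largest with an early difference under 0.25 or opposite, up to 4 members per list past 2-fold under both scalings, and 15 genes whatever their values. Genes outside the rule are marked or complete a count. Alternatives were quantile normalization, median centring, other pseudocounts and filters, averaged probe sets and a 3-fold threshold. The calculation of differences was checked on simulated data, which says nothing of replicate error. Python 3.11.15, numpy 2.4.6 and pandas 2.3.3 were used.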

Additional observations from a re-analysis of the deposited data

Results flagged for a closer look

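For 9 genes the bone line was at least 2-fold lower than the liver line in the final pair and at least 2-fold higher in the early pair, and no gene had the reverse pattern. With 1 array per passage the difference between the pairs was not tested. Igfbp3 is described above, with -3.31 in the final and 1.90 in the early pair. Hp, the haemoglobin-binding plasma protein haptoglobin, read 1.5 in the parental array, 148.5 and 3.9 in bone passages 3 and 6, and 2.7 and 27.4 in liver passages 1 and 3, so bone passage 3 was by far its highest array, and its differences were -1.12 and 3.14. Lce1h, of the late cornified envelope family, differed by -2.43 and 1.67 and was highest in liver passage 3, at 396.

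Matn2, a matrix adaptor protein, differed by -1.39 and 1.19, with a second probe set at -0.43 in the final pair. Necab3 differed by -1.67 and 1.33, also with a second probe set nearer 0, at -0.12. Etv2, a factor of early endothelial development, differed by -1.32 and 1.42 at signals of at most 43.4. Baalc differed by -1.13 and 1.05, Clca3a2 by -1.09 and 1.08 and Engase by -1.0 and 1.01, and the final difference of these 3 was under 2-fold after quantile normalization.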

How the results depend on the processing

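Counts moved mainly with the pseudocount and the threshold. Against 146 higher and 442 lower genes, a pseudocount of 1 gave 291 and 885, one of 64 gave 54 and 138, a 3-fold threshold gave 37 and 115, and median centring gave 226 and 284. Supported genes, 21 higher and 66 lower, became 37 and 109 with a pseudocount of 1, 7 and 25 with 64, and 5 and 22 at 3-fold. Quantile normalization and median centring each gave 32 supported higher genes. The 184 genes past 2-fold in the same direction in both pairs became 353, 72 and 49 at pseudocounts of 1 and 64 and at 3-fold. Lower interferon response genes, 23 as reported, numbered 15 at 3-fold and between 17 and 25 under the other alternatives run. Alternatives on the low-signal filter, averaged probe sets, and, chosen after the values were seen, subtraction of the chromosome median or leaving out X genes kept within 1.5 times each of these counts they gave (averaging gives no supported genes). No alternative turned the direction of a named gene past 2-fold, and 37 of the 99 named genes dropped under 2-fold in at least 1. The 99 include genes that were under 2-fold to begin with, such as Erbb2 and Krt8. Named genes were not looked at under the 3-fold threshold.

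No paired analysis was possible because each group held 1 array, which also leaves no replicate to omit. Array signal near 0 has no order, so differences of dim genes are the least certain, and no value here measures the spread between cultures.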

Other observations

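Some genes of the cornified envelope, the protein shell of terminally differentiated squamous cells, were picked after their values were seen, and no list of that group was counted. The late cornified envelope genes Lce1f, Lce1g and Lce1i differed by -1.21, -1.36 and -1.20, beside Lce1h above. Ivl, which encodes involucrin, read 19.3 in the parental array, 45.2 and 33.5 in bone passages 3 and 6, and 28.7 and 152 in liver passages 1 and 3, a difference of -1.76 with agreeing probe sets. Liver passage 3 was the highest of the 5 arrays for each of these genes, and the early pair differed by 0.07 to 0.48 for Lce1f, Lce1g, Lce1i and Ivl. With 1 array per passage the difference was not tested.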
